A study of Mus musculus with 4 samples.

Results

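The genes described here encode the origin recognition complex (Orc1 to Orc6) and its loading partners Cdc6 and Cdt1, 8 of the 24420 gene symbols in the deposited expression table of mouse testis. The members were taken by symbol. All 8 passed the filter on low values, a CPM (read count scaled to library size) of at least 1 in at least 2 libraries, that left 15364 tested genes. The family itself was selected on the measured difference of Orc4, already seen to be lower in the mutant, so the differences of its members between genotypes are given as a description and support nothing. Testis of FVB mice labelled lrrc8a MUT was compared with testis of WT mice of the same strain, with 2 libraries per genotype and no treatment named, and the age of the mice and the kind of mutation are not given in the sources used here. Lrrc8a codes for an essential part of the volume-regulated anion channel, which lets chloride out of swollen cells. No label says whether replicate libraries stem from different mice, so their spread may be technical. The labels give fresh testis tissue as the material and germ cells as the cell type. RNA of somatic cells was present, since no marker of the Sertoli or Leydig cells was at 0 in all libraries and the summed level of the 6 Leydig markers was 896.4 to 1096 CPM, but the share of somatic cells was not measured.

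The origin recognition complex marks the sites where DNA copying can begin. Orc1 to Orc5 form a ring-shaped ATPase around the DNA, Orc6 is the smallest subunit and also acts in cell division, and Cdc6 closes the ring before Cdt1 delivers the MCM helicase. This loading, called licensing, is confined to the time before S phase, because geminin (Gmnn) and ubiquitin ligases then remove or block Cdt1. In the testis, spermatogonia copy their DNA at each division and early spermatocytes do so in a last S phase before meiosis, and spermatids no longer replicate.

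Several of these genes are known targets of the E2F factors, which switch on S phase genes, so the stretches that carry an E2F-type match are shown for the members that have one, with a CRE match in Orc5 for comparison. The motifs searched on both strands were TTTGGCGC, TTTCCCGC, TTTGCCGC and TTTCGCGC for E2F, TGACGTCA for the cyclic AMP response element (CRE), CCAAT, and GGGCGG for the GC box. The windows, from RefSeq on GRCm38.p6, run from 250 bases before a gene start to 50 after it, and the 8 genes have 11 of them. Each stretch below is read 5′ to 3′ on the strand of its gene, with the match in capitals. They lie at chr4:108579416-108579445 (plus strand, Orc1), chr4:34614965-34614994 (minus, Orc3), chr11:98908002-98908031 (plus, Cdc6), chr8:122568035-122568064 (plus, Cdt1) and chr5:22550389-22550418 (minus, Orc5).
Orc1: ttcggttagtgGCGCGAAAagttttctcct
Orc3: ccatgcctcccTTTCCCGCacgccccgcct
Cdc6: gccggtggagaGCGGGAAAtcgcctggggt
Cdt1: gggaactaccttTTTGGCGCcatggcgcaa
Orc5: gcgcggctcccTGACGTCActcgaccgcgc

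An E2F match was found in 4 of the 8 genes and 4 of their 11 windows. It lay 27, 41 and 138 bases upstream of the RefSeq start in Orc1, Orc3 and Cdc6 and at base 33 after it in Cdt1. Among all 32851 promoter windows of the same length, 2.26% held one. The CRE match, 69 bases upstream of the RefSeq start of Orc5, was found in 1 of the 11 windows and in 1.79% of all windows. In GENCODE vM21, Orc1, Cdc6 and Orc5 begin further upstream, at bases 108579423, 98907801 and 22550429. The matches of these genes thus lie within their GENCODE spans. The Orc3 match lies within the span of Rars2, which starts at base 34614957 on the opposite strand. CCAAT was found in 5 of the 11 windows, from 4 genes (37.4% of all windows), and the GC box in 8 of the 11, from 6 genes (35.7%). Windows of 1 gene can overlap and are not independent. The E2F letters were not found in any of the windows of Orc2, Orc4, Orc5 or Orc6, which says only that they are absent from these bases.

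Orc4, the member with the largest difference between genotypes, has 3 annotated starts in RefSeq. Bases outside annotated exons are shown before the innermost start (base 48949267; chr2:48949277-48949507) and before the outermost (base 48950234; chr2:48950278-48950484), both on the minus strand of GRCm38.p6. Capitals mark GC boxes in either orientation and, in the second sequence, a CCAAT match read on the opposite strand. The last 4 capitals of the first sequence begin a GC box whose remaining bases lie in an Orc4 exon of GENCODE vM21, which begins slightly upstream of the RefSeq start, so that the whole box is upstream of the latter.
Orc4 inner start: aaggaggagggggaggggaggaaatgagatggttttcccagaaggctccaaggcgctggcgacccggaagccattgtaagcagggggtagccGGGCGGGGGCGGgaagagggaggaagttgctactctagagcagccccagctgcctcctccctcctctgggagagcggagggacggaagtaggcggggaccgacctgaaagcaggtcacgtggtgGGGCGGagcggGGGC
Orc4 outer start: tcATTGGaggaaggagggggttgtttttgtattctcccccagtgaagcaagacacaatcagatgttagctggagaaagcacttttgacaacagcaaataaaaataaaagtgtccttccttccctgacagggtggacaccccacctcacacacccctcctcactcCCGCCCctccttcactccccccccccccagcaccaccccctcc
The 250 bases before the inner start held 15 CpG dinucleotides and those before the outer start 3. Which start is used in these libraries is not shown by counts per gene.

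The libraries held 40426400 to 68192776 reads assigned to genes, and the members were covered by 141 reads (Cdt1 in MUT 2) to 2187 reads (Orc2 in WT 1). Lrrc8a itself measured 13.49 (MUT 1), 15.86 (MUT 2), 18.21 (WT 1) and 17.15 CPM (WT 2). Its log2 difference of -0.26 (SE 0.0998) fell short of the threshold (limma adjusted p = 0.218), and no label tells where in the gene the mutation lies. Differences are log2(CPM + 0.5), MUT minus WT, and p-values come from limma, adjusted by Benjamini-Hochberg across the 15364 genes. With 2 libraries a side, the smallest two-sided p of an exact permutation test is 0.333. In bulk RNA, fewer cells of a type and less RNA per cell cannot be told apart.

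Among the ATPase-ring subunits, Orc4 measured 14.6 and 13.66 CPM in MUT 1 and MUT 2 but 21.28 and 26.28 CPM in WT 1 and WT 2. Both mutant libraries lay below both wild-type libraries, and the wild-type pair was the wider one. The means were 14.13 ± 0.664 CPM in mutant and 23.78 ± 3.53 CPM in wild-type testis (SD, n = 2), so that MUT held 59.4% of the WT level. The log2 difference was -0.72 (SE 0.103), and its size rested partly on WT 2: it was -0.58 without WT 2 and -0.87 without WT 1. The reads behind these values numbered 712, 559, 1435 and 1307 in the same order of libraries.

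Orc1, which binds ATP and is the subunit whose protein level follows the cell cycle in mammals, was at 9.738 and 8.698 CPM in the mutant libraries, against 9.241 and 9.691 CPM in the wild type. The genotypes overlapped, with a log2 difference of -0.04 (SE 0.108). Orc2 was at 33.85 and 35.06 CPM in the mutant libraries, against 32.44 and 36.69 CPM in the wild type, and its libraries overlapped as well. Its log2 difference of 0.00 (-0.002, SE 0.0838) was the smallest of the 8. Orc3, the partner of Orc2 in the complex, was at 29.81 and 28.64 CPM in the mutant libraries, against 29.74 and 35.51 CPM in the wild type. Only WT 2 stood apart there, and the log2 difference was -0.15 (SE 0.0905). Orc5, another ATP-binding subunit, had the same shape, with 26.57 and 28.64 CPM in MUT against 27.65 and 35.16 CPM in WT (log2 difference -0.17, SE 0.0998). MUT 2 lay above WT 1 for this gene.

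Orc6 had the narrowest range of the subunits, at 10.91 and 10.41 CPM in the mutant libraries, against 10.83 and 10.72 CPM in the wild type (log2 difference -0.02, SE 0.101). Cdc6, the ATPase that recruits the helicase to the complex, was at 9.554 and 10.16 CPM in the mutant libraries, against 9.715 and 9.108 CPM in the wild type. It was the one member with a difference above 0 (0.06, SE 0.105), and its genotypes overlapped. Cdt1, the helicase carrier, was the weakest member, at 3.711 and 3.445 CPM in the mutant libraries, against 3.99 and 4.101 CPM in the wild type. Both its mutant libraries were below both wild-type libraries, by less than 1 CPM, and the log2 difference was -0.16 (SE 0.132).

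**Figure D1:**
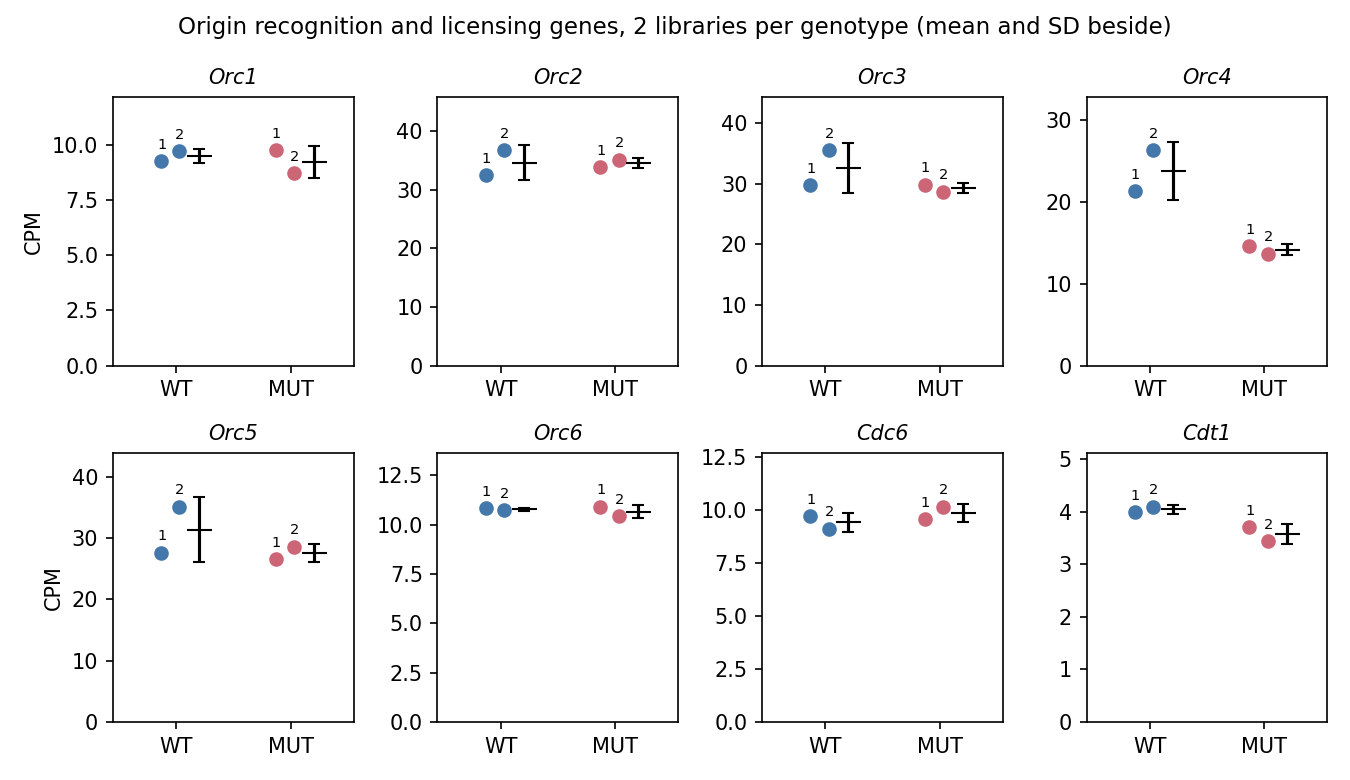
CPM of each member (y axis from 0) in the WT (blue) and MUT (red) libraries, with the replicate number above each point and the mean ± SD (n = 2) beside it. Orc4 is at 21.28 and 26.28 CPM in WT and at 14.6 and 13.66 CPM in MUT, while for Orc1, Orc2, Orc3, Orc5, Orc6 and Cdc6 the genotypes overlap.

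Of the 8 members, 1 passed the threshold over all genes (limma adjusted p under 0.05), Orc4, the gene for which the family was proposed; the background was 0.749% of the tested genes in either direction, and nothing is read from that count. It was not past the threshold without the filter on low values (limma adjusted p = 0.102) or without the variance trend (0.17). The genotypes did not overlap for 2 members, Orc4 and Cdt1, both lower in MUT. Over all tested genes 22.6% were lower and 23% higher without overlap, 45.6% in either direction. The 2 of 8 lower members are thus near the share of lower genes, and 0 of 8 were higher. In either direction the 2 of 8 are below the share of all genes. As 1 of the 2 is Orc4, nothing is read from this count either. The median log2 difference over the 8 members was -0.10, and over the 7 without Orc4 -0.04, beside 0.00 (-0.002) over all tested genes. For the 7 other members, 95% intervals of the log2 difference lay between -0.43 (the lower bound of Cdt1) and 0.28 (the upper bound of Cdc6), so that differences within these bounds were not resolved by 2 libraries per genotype. In the plot of log2 differences Orc4, for which the family was chosen, lies apart from the other members.

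**Figure D2:**
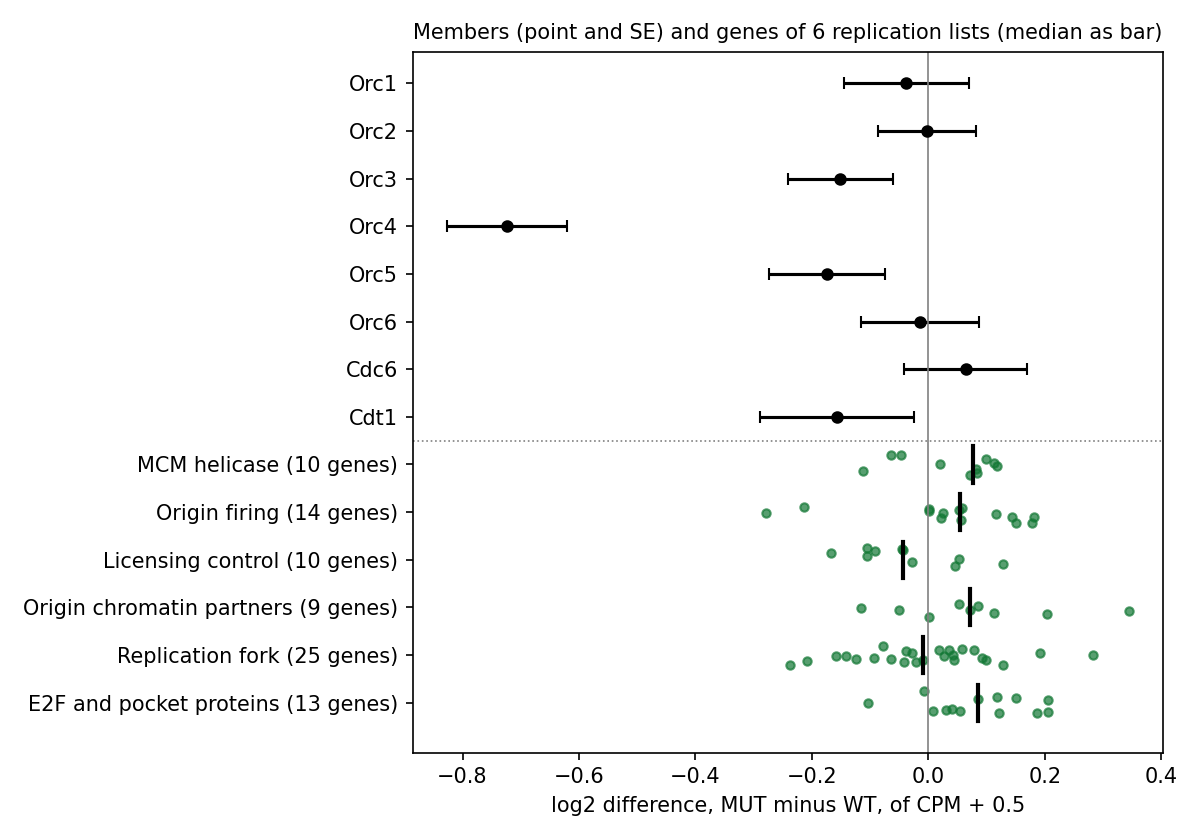
Log2 difference of CPM + 0.5, MUT minus WT (x axis), for the 8 members (black points, bars are SE) and for the tested genes of 6 replication lists (green points, spread vertically at random, with the list's median as a bar). Orc4 lies at -0.72, and the other members lie between -0.17 and 0.06.

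The level of Orc4 was also set against that of other subunits within each library. The ratio of Orc4 to Orc2 CPM was 0.431 (MUT 1), 0.39 (MUT 2), 0.656 (WT 1) and 0.716 (WT 2). The ratio to Orc3 was 0.49 and 0.477 in MUT and 0.716 and 0.74 in WT, and that to Orc5 was 0.549 and 0.477 in MUT and 0.77 and 0.747 in WT. The wild-type libraries were closer to each other in the ratios to Orc3 and Orc5 than in Orc4 itself, and all 3 genes were higher in WT 2. These ratios use the same contrast as the CPM and add no independent evidence.

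**Figure D3:**
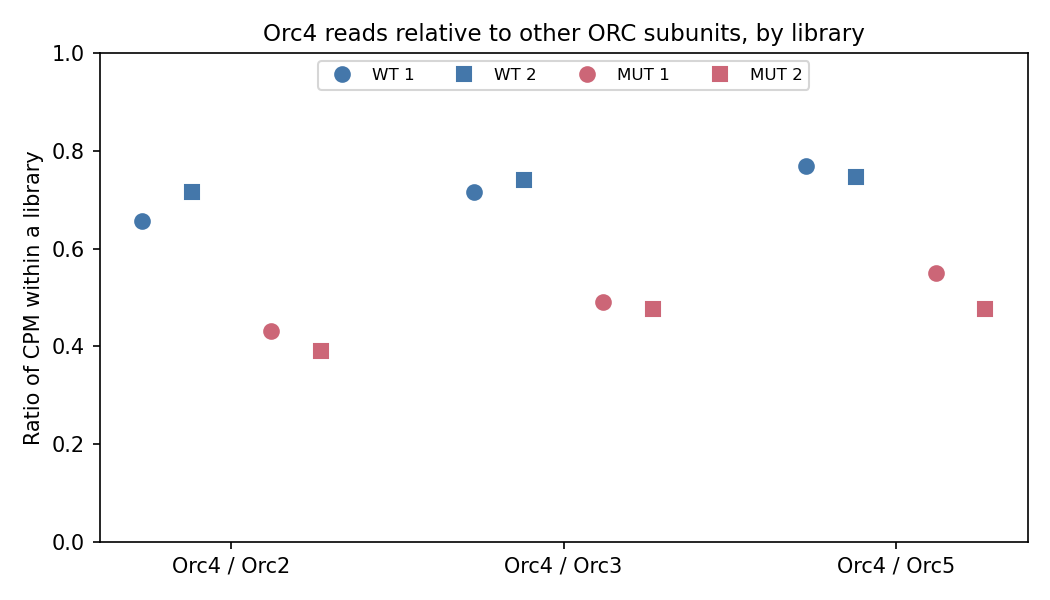
Ratio of Orc4 CPM to the CPM of Orc2, Orc3 and Orc5 within each library (y axis from 0; blue WT, red MUT; circles replicate 1, squares replicate 2). Each ratio lies between 0.656 and 0.77 in the WT libraries and between 0.39 and 0.549 in the MUT libraries.

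Levels of different genes were compared as CPM per kilobase of annotated exon, the union over all transcripts of a gene. In WT, Orc2 was the highest at 8.962 ± 0.78 CPM per kilobase (SD, n = 2), followed by Orc3 (5.358 ± 0.67), Orc5 (5.093 ± 0.862), Orc6 (4.363 ± 0.0319), Orc4 (3.189 ± 0.473) and Orc1 (2.721 ± 0.0915). The loading factors were lowest, Cdc6 at 1.8 ± 0.0822 and Cdt1 at 1.288 ± 0.0251 CPM per kilobase. The ranges of Orc3 and Orc5 overlapped, but within each of the 4 libraries Orc3 was above Orc5, by the least in MUT 2 (4.704 against 4.644). In WT, the lower Orc5 library (4.484) was only slightly above the higher Orc6 library (4.385). Orc5 was below Orc6 in MUT 1 (4.309 against 4.418) and above it in MUT 2 (4.644 against 4.216). By this union length, Orc4 in MUT was at 1.894 ± 0.0891 CPM per kilobase, beside Cdc6 at 1.885 ± 0.0825 and below Orc1 at 2.65 ± 0.211. That place does not hold with the longest transcript, by which Orc4 in MUT was above both. The union and the longest transcript have 7458 and 4066 bases in Orc4, 3479 and 3014 in Orc1, and 5229 and 4802 in Cdc6. Of the summed level of the 6 subunits per kilobase, Orc4 made up 7.21% (MUT 1), 6.79% (MUT 2), 10.3% (WT 1) and 11.1% (WT 2). The order depends on the length used: with the longest transcript of each gene Orc3 (10.56) came before Orc2 (9.707) in WT.

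The wild-type libraries differed from each other in some members. WT 2 exceeded WT 1 by 0.34 in Orc5, 0.30 in Orc4 and 0.25 in Orc3 on the log2 scale, against a standard error from counting alone of 0.048, 0.0552 and 0.0471. Differences at least as large in size were found in 5.03%, 7.79% and 12.2% of all tested genes. Orc2 differed by 0.18, and Orc1, Orc6, Cdc6 and Cdt1 by 0.07, -0.01, -0.09 and 0.04, within about their counting error. The mutant pair differed by at most 0.16 in size, in Orc1 (-0.155).

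The 3 members with the largest excess in WT 2 were those with the lowest GC content in their longest annotated transcript. The longest transcript of Orc4, Orc5 and Orc3 has 36.8%, 38.2% and 38.6% GC, and the others range from 44.4% (Orc2) to 57.8% (Cdt1). That of Orc5 has only 1 exon (3742 bases), so its GC content and correction rest on this transcript and may not hold for its spliced ones. Among the 867 tested genes under 40% GC the median difference between WT 2 and WT 1 was 0.13, and among the 7034 genes at 50% or more it was -0.04. After the trend of each library on GC content and length was removed, a step chosen after the data were seen, the WT 2 excess was 0.22 in Orc5, 0.16 in Orc4 and 0.14 in Orc3. The log2 difference of Orc4 between genotypes was -0.74 (SE 0.0872) after this step. Those of Orc3 and Orc5 were each smaller in size without WT 2, at -0.03 and 0.00 (-0.003), and larger without WT 1, at -0.28 and -0.35.

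**Figure D4:**
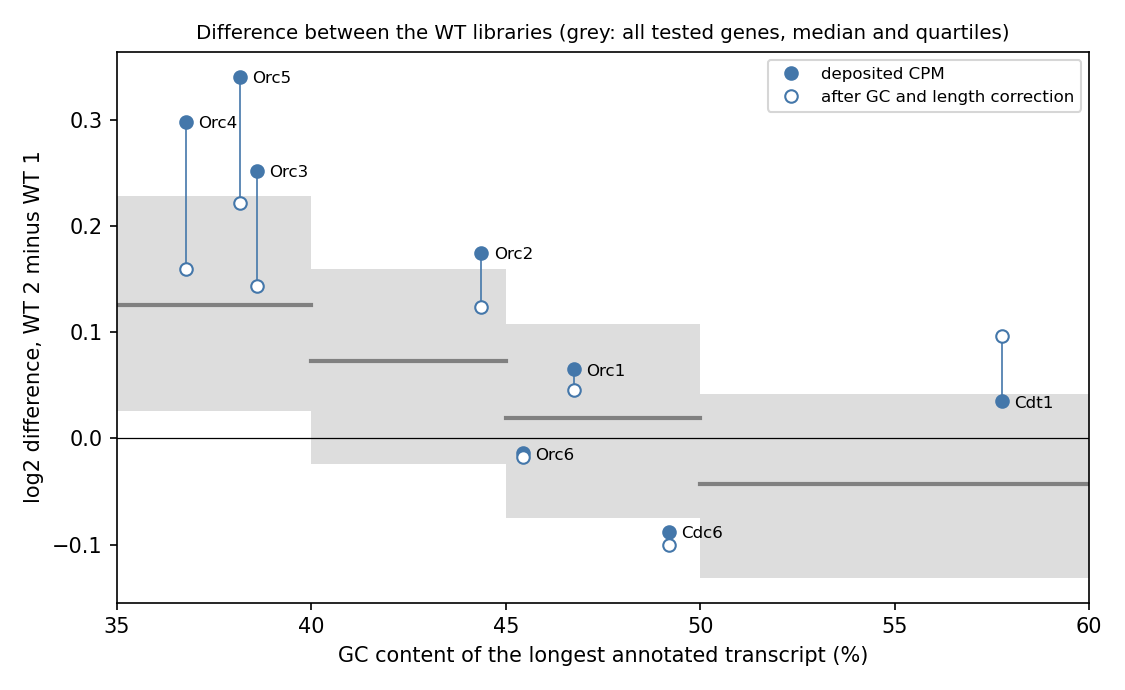
Log2 difference of WT 2 minus WT 1 (y axis) against GC content of the longest annotated transcript (x axis, %) for the 8 members, before (filled) and after (open) correction for GC content and length. Grey bands and lines show the quartiles and median of all tested genes under 40%, from 40 to 45%, from 45 to 50% and at 50% GC or more; Orc3, Orc4 and Orc5 start at 0.25, 0.30 and 0.34 and end at 0.14, 0.16 and 0.22.

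Orc4 (ENSMUSG00000026761) lies on the minus strand of chromosome 2, chr2:48902824-48950277 in GENCODE vM21 on GRCm38, 18.6 Mb from Lrrc8a on the same chromosome. It has 13 annotated transcripts, and its longest one has 14 exons. Its last 446 bases overlap the end of the activin receptor gene Acvr2a on the plus strand, and its first 770 overlap the start of Mbd5, a methyl-CpG-binding domain gene, also on the plus strand. If the counting ignored strand, reads in these stretches could not be assigned to either gene. Neither neighbour passed the test: Acvr2a was at 23.5 and 25.17 CPM in the mutant and 22.92 and 24.37 CPM in the wild type (log2 difference 0.04, SE 0.0867, limma adjusted p = 0.88), and Mbd5 at 28.54 and 26.27 CPM in the mutant and 27.59 and 27.46 CPM in the wild type (-0.01, SE 0.084, adjusted p = 0.981). Within 1 Mb of Orc4, the tested genes further away were Epc2 (-0.13, SE 0.0774), a subunit gene of a histone acetyltransferase complex, and the kinesin gene Kif5c (-0.19, SE 0.0842), and neither passed (limma adjusted p = 0.439 and 0.313).

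By the starts in GENCODE vM21, other members also share their start region with a gene on the opposite strand. Orc3 starts 13 bases from the mitochondrial arginyl-tRNA synthetase gene Rars2, at 25.77 and 23.75 CPM in the mutant and 22.9 and 26.52 CPM in the wild type. Orc1 starts 87 bases from the splicing factor gene Prpf38a, at 36.1 and 37.58 CPM in the mutant and 37.11 and 35.93 CPM in the wild type. Orc6 starts within 170 bases of the retromer gene Vps35, whose first exon it overlaps, at 79.26 and 77.21 CPM in the mutant and 72.19 and 91.1 CPM in the wild type. None of these 3 neighbours passed the test (limma adjusted p = 0.988, 0.963 and 0.838). Vps35 and Rars2 were higher in WT 2 than in WT 1, by 0.33 and 0.21, and Prpf38a was not (-0.05). Orc5 starts 3 bases from the noncoding gene 6030443J06Rik, at 10.66 and 9.284 CPM in the mutant and 8.01 and 8.223 CPM in the wild type (adjusted p = 0.24).

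The rest of the replication pathway was described from 6 lists that hold 84 genes, of which 81 were tested and 0 were called by limma, edgeR or DESeq2. At an unadjusted p under 0.05 there were 9 of 81, beside 14.7% of all tested genes. Over all tested genes 0.482% were called higher and 0.267% lower. The median log2 difference of the 81 was 0.04, and 52 lay above and 29 below 0, beside 7616 above and 7748 below among all tested genes.

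The MCM helicase, loaded by the members, had 10 tested genes with log2 differences from -0.11 to 0.12. Mcm7 was the most abundant, at 211.8 ± 4.34 CPM in mutant and 221.7 ± 8.84 CPM in wild-type testis (SD, n = 2). Mcm2 was at 13.69 and 12.62 CPM, Mcm3 at 25.15 and 23.48 CPM, and the meiotic relative Mcmdc2 at 13.64 and 12.52 CPM, in MUT and WT.

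Among 14 origin firing genes, which turn the loaded helicase on, 12 lay above 0 and 2 below, with a median of 0.05. The lowest were Gins1, of the GINS complex, at 12.73 ± 0.617 CPM in mutant and 15.54 ± 0.545 CPM in wild-type testis (log2 difference -0.28, SE 0.0965, limma adjusted p = 0.181), and the helicase gene Recql4 (-0.21, SE 0.0982, adjusted p = 0.318). Topbp1, an activator of firing, was at 86.27 CPM in mutant and 78.07 CPM in wild-type testis (adjusted p = 0.342), and Donson at 83.28 and 81.85 CPM. None of these passed the test.

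In the licensing control list 10 genes were tested, with a median of -0.04. The ligase component gene Skp2, whose product targets Cdt1, was at 89.94 ± 5.33 CPM in mutant and 101.5 ± 13.1 CPM in wild-type testis (log2 difference -0.17, SE 0.082, limma adjusted p = 0.348). Dtl, the substrate receptor that marks Cdt1 in S phase, was at 54.91 CPM in mutant and 50.2 CPM in wild-type testis (adjusted p = 0.435). Its partner Ddb1 was the most abundant at 375.2 and 386.9 CPM, and Cdc20 was at 129.2 and 137.6 CPM. The Cdt1 inhibitor geminin (Gmnn) was at 17.34 and 16.54 CPM in the mutant and 15.72 and 16.95 CPM in the wild type.

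Among 9 origin chromatin partners, Lrwd1, whose product binds the complex and holds it on chromatin, was the most abundant, at 361.7 ± 10.4 CPM in mutant and 375.2 ± 33.2 CPM in wild-type testis. Phip had the highest log2 difference of all 81 genes (0.35, SE 0.107, limma adjusted p = 0.137), at 22.37 and 17.61 CPM. Setd8, now named Kmt5a, the histone H4 lysine methyltransferase gene, was at 31.1 CPM in mutant and 26.94 CPM in wild-type testis (adjusted p = 0.253), and Cbx5 at 91.4 and 84.68 CPM.

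Of 25 tested replication fork genes, 12 lay above and 13 below 0. Pole3, an accessory subunit gene of polymerase epsilon, was at 63.61 ± 3.43 CPM in mutant and 52.41 ± 6.62 CPM in wild-type testis (log2 difference 0.28, SE 0.085, limma adjusted p = 0.128). The primase gene Prim2 was at 29.55 and 25.78 CPM (adjusted p = 0.289). Rnaseh2a, of the enzyme that removes ribonucleotides from DNA, was the most abundant at 429.4 ± 2.35 and 479.2 ± 15.1 CPM (-0.16, SE 0.0592, adjusted p = 0.216).

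Among 13 E2F and pocket protein genes, 11 lay above 0 and the median was 0.08. Tfdp1, the dimer partner of E2F factors, was at 59.8 CPM in mutant and 52.41 CPM in wild-type testis (log2 difference 0.19, SE 0.0773, limma adjusted p = 0.265), the pocket protein gene Rbl1 at 29.67 and 25.71 CPM (adjusted p = 0.292), and E2f7 at 6.698 and 5.741 CPM (adjusted p = 0.436). Rbl2 was the most abundant, at 122.4 and 121.8 CPM. Single libraries decided 3 calls in these lists: without WT 1, Pole3 was called higher (limma adjusted p = 0.0114) and Skp2 lower (0.046), and without WT 2, Phip was called higher (0.0234). Over their alternatives the adjusted p ranged up to 0.52, 0.899 and 0.476 for Pole3, Skp2 and Phip.

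The summed level of 8 proliferation markers, among them Mki67 and Top2a, was 431 to 443.9 CPM in MUT and 437.5 to 443.3 CPM in WT, with 0 of 8 called. Spermatogonial markers summed to 148.9 to 156.8 CPM in MUT and 140.2 to 153.6 CPM in WT, with 6 of 10 tested markers above 0 and 4 below. Of these 10, 1 was called, the receptor gene Kit, which rose from 14.6 and 16.97 CPM in WT to 20.67 and 23.09 CPM in MUT (limma adjusted p = 0.033), beside 0.749% of all tested genes called. Of the other markers above 0, Zbtb16 was at 0.40 (limma adjusted p = 0.117) and Lin28a at 0.36 (0.227). Gfra1, Dmrt1 and Etv5 were between 0.075 and 0.19. Uchl1 had the lowest log2 difference of this list (-0.21, limma adjusted p = 0.287), and Id4, Stra8 and Sohlh1 were between -0.06 and -0.01. The genotypes did not overlap for 6 markers higher and 1 lower in MUT, beside 23% and 22.6% of all tested genes. Sums of the Leydig markers were 1057 to 1096 CPM in MUT and 896.4 to 915.3 CPM in WT, and those of the Sertoli markers 892.1 to 926.7 and 821.4 to 866.6 CPM. Each sum was mostly 1 gene: the steroid synthesis gene Cyp17a1 held 657.1 and 680.2 CPM in MUT and 572.5 and 533 CPM in WT, and Clu held 727 and 766 CPM in MUT and 718.4 and 669.9 CPM in WT. Of the 6 Leydig markers, 5 lay above 0 and Insl3 below (-0.28, 25.21 CPM in MUT and 31.21 CPM in WT). Cyp17a1 was the 1 called (limma adjusted p = 0.0361), and 4 of the 6 were at an unadjusted p under 0.05, beside 14.7% of all tested genes. Of the 8 Sertoli markers, 6 lay above 0 and Amh (-0.38, 2.082 and 2.788 CPM) and Wt1 (-0.02) below, and 0 were called by limma, with 3 at an unadjusted p under 0.05. Of the germ cell lists, 0 of 8 meiotic prophase, 0 of 7 round spermatid and 0 of 8 elongating spermatid markers were called, with median log2 differences of -0.04, -0.02 and -0.07. The 2 somatic sums were higher in MUT, where Orc4 was lower. Without overlap, 4 of the 6 Leydig and 6 of the 8 Sertoli markers were higher in MUT and 0 were lower. Over all tested genes these shares were 23% and 22.6%. The markers below 0, Insl3, Amh and Wt1, overlapped between genotypes. The part of the somatic sums in the difference of Orc4 was not tested.

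The tested genes closest to Orc4 over the 4 libraries, by the root mean square difference of centred log2 values, were Sox1 (0.0679), 4930433B08Rik (0.0846), Pitx3 (0.088), Gm30498 (0.0926) and Slc18a2 (0.0974). Sox1, a transcription factor gene, was at 1.784 and 1.857 CPM in the mutant and 2.714 and 3.518 CPM in the wild type. For 4930433B08Rik, Pitx3 and Slc18a2 both mutant libraries were under 1 CPM, so these genes passed the filter only through the wild type. They had 28 to 84 reads per library, and their log2 differences depended on the CPM added before taking logs. With 1 CPM in place of 0.5 these were -0.42, -0.45 and -0.465, beside -0.705 for Orc4. With 0.1 CPM they were -0.74, -0.84 and -0.87, beside -0.74. Of the 5, only Gm30498 was called (limma log2 difference -0.82, SE 0.147, adjusted p = 0.0113), a call lost without WT 2, without the filter on low values and without the variance trend (adjusted p up to 0.16). With 4 libraries such a likeness is a description.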

How the data were processed

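The authors deposited one table of CPM, read counts scaled to library size, for 4 testis libraries (2 MUT, 2 WT). These CPM summed to 992486.9 (MUT 1), 987722.6 (MUT 2), 1011463.1 (WT 1) and 1008533.2 (WT 2). The unequal sums show that the scaling was not by plain library totals alone. The submitters' processing notes name edgeR 3.8.6, HTSeq 0.6.0, TopHat2 2.0.10 and the build mm10 without their roles, and the strand setting of the counting was not found in the labels. Per the labels' protocols, polyadenylated RNA was made into stranded libraries. All values (100%) were whole multiples, within 0.001, of the smallest value of their library, which recovered the reads.

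Values were tested as log2(CPM + 0.5) with limma 3.58.1 (variance trend, R 4.3.3), two-sided, over 15364 genes with at least 1 CPM in at least 2 libraries, with Benjamini-Hochberg adjustment and a threshold of 0.05. Alternatives used other pseudocounts, filters, scalings and variances, edgeR 4.0.16 and DESeq2 1.42.0 on recovered reads, a replicate block and 3 of the 4 libraries. The tests were checked on simulated counts. The scaling of the simulated libraries was changed to that of the deposited CPM after a first version gave more false calls, and with limma and edgeR the share of false calls among all calls stayed above the threshold in the simulation kept. The members and lists were chosen with earlier results of these data known. The text names the members, from each list the 3 genes with the smallest p and the most abundant one, tested genes within 1 Mb of Orc4, and the 5 closest to it in pattern; other genes were chosen after their values were seen. In the lists, 3 symbols were matched through RefSeq synonyms. Positions come from GENCODE vM21 and RefSeq GRCm38.p6.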

Additional observations from a re-analysis of the deposited data

How the results depend on the processing

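The log2 difference of Orc4 was below 0 in all 17 alternatives, from -0.87 to -0.58, and past the threshold in 15 of them. It was not past it without the filter on low values (limma adjusted p = 0.102) or without the variance trend (0.17), and its adjusted p ranged from 5.2e-07 to 0.17. None of the 7 other members was past the threshold in any alternative. The alternatives refit the same libraries, so their agreement on Orc4, the gene for which the family was chosen, adds no independent evidence. Among all genes 74 were called higher and 41 lower; these counts became 5 and 2 when the variance trend was dropped, 7 and 4 without the filter, 35 and 18 with quantile normalization, and 44 and 25 with the GC and length correction. With CPM over plain library totals 122 genes were higher, and with DESeq2 72 were lower. Leaving out single libraries gave 67 to 133 higher (most without WT 1) and 42 to 177 lower genes (86 without MUT 2, 177 without WT 1), and 0 to 1 higher and 0 to 1 lower among the pathway genes. The cause was not tested. In the order per kilobase in WT, 2 members changed rank with the longest transcript.

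The labels give both genotypes replicate numbers 1 and 2 but not that these pair the samples, and the differences within the pairs correlated at -0.134 across genes. With the numbers as a replicate block 57 genes were higher and 31 lower, and with the crossed pairing, chosen after the data were seen, 131 and 104. Orc4 was past the threshold in both fits, and no other member and no pathway gene was. At 2 libraries per genotype the median standard error of a log2 difference was 0.0948, and Cdt1, with 141 to 269 reads, had the widest interval of the members.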
